A study of Homo sapiens with 15 samples.

Results

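The genes described here are 33 of the 19820 protein-coding genes of the annotation: the 11 zinc-dependent histone deacetylases HDAC1 to HDAC11, the 7 sirtuins SIRT1 to SIRT7, 13 acetyltransferases and coactivators, and the BET readers BRD2 and BRD3. They were listed by name as the enzymes that remove or add histone acetyl groups and as readers of that mark. For each gene, the BG4 regions and peaks lying within 1 kb of a start site of one of its protein-coding transcripts (GENCODE, GRCh37) were taken as its promoter signal. Of the 33 genes, 27 had at least 1 high-confidence region there, and these 27 genes held 37 of the 6848 high-confidence promoter regions.

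BG4 is an antibody that binds G-quadruplexes, the stacked structures into which guanine-rich DNA can fold. It was used for chromatin immunoprecipitation and sequencing in asynchronous K562, an established human line from a chronic myelogenous leukaemia, with no treatment named in the labels. Replicate 1 gave 2 technical libraries (1a and 1c) and replicate 2 gave 3 (2a, 2b and 2c), so values with an SD have n = 2 biological replicates. The series also holds 2 K562 input libraries and bisulfite sequencing of HaCaT keratinocytes, 4 control libraries and 4 treated with the deacetylase inhibitor entinostat at 10 uM for 48 h, and these were not analysed here. The peaks in the lists of 2a and 2c carry each other's letter in their names. Here the sample labels decide, and values of 2a and 2c may be exchanged.

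Histone acetyltransferases transfer an acetyl group from acetyl-CoA to lysines of the histone tails, which loosens the contact with DNA and creates a binding surface for bromodomain proteins such as the BET readers. Deacetylases remove the group: the zinc-dependent enzymes work mostly inside corepressor complexes, and the sirtuins use NAD+. Entinostat is a benzamide that inhibits the class I enzymes HDAC1, HDAC2 and HDAC3, and it is used to raise histone acetylation in leukaemia and other cells. A BG4 peak marks DNA at a promoter and is no measure of the expression of the gene or of acetylation.

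Sequences from the regions of the genes with the strongest peaks show DNA inside the stretches called for antibody signal. A motif inside a region need not lie at the summits of its peaks. The 24 G4 motifs wholly inside the 37 regions, each with 4 G runs (at least 3 bases each) and loops of 1 to 7 bases, fell in 15 genes and were 18 to 29 bases long. Motifs of the 6 genes with one among the 10 with the strongest peaks are printed 5′ to 3′ on the strand that carries the G runs, with the runs in capitals (GRCh37 reference). In the motif of the upstream KAT6B region the longest stretch of G counts as separate runs, with 1 G between them taken as a loop. The printed motifs lay at chr1:32757654-32757671, chrX:48660867-48660884, chr3:13521635-13521663 and chr3:13521777-13521796, chr10:69644345-69644368, chr11:236362-236385, chr11:236396-236418 and chr11:236439-236463, and chr10:76586147-76586169 and chr10:76586584-76586612, in the order given. All are on the plus strand except the second of HDAC11 and the 3 of SIRT3, which are on the minus strand.
HDAC1: GGGGacGGGcGGGGcGGG
HDAC6: GGGccGGGcGGGGccGGG
HDAC11, motif upstream of the start: GGGacttcGGGcttgatGGGcgttGGGGG
HDAC11, motif downstream of the start: GGGGcGGGGcgcGGGtGGGG
SIRT1: GGGcGGGGGcggcgatGGGGcGGG
SIRT3, nearest to the start: GGGGccGGGGcgccGGGGGcGGGG
SIRT3, middle: GGGGcgccGGGGGcGGGGGtGGG
SIRT3, farthest: GGGaccGGGGcgccGGGGGcGGGGG
KAT6B, upstream region: GGGGGGGatgatGGGtcgaGGGG
KAT6B, second region: GGGcGGGaGGGGGGaacagacGGGGGGGG

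Not every strong region held such a motif, and longer stretches show the range. The parts of 5 regions upstream of the start site and outside annotated exons are printed on the strand of the gene, with every run of 3 or more G or C in capitals. They are chr1:32757439-32757683 (plus strand) for HDAC1, chr5:141016417-141016516 (minus) for HDAC3, chr10:69644211-69644413 (plus) for SIRT1, chr11:236355-236517 (minus) for SIRT3 and chr6:32936222-32936370 (plus) for BRD2.
HDAC1: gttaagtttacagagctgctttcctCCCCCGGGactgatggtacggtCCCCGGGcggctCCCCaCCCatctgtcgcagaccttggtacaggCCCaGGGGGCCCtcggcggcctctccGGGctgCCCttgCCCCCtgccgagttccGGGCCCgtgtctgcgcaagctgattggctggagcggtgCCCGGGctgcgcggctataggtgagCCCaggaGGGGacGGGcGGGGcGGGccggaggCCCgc
HDAC3: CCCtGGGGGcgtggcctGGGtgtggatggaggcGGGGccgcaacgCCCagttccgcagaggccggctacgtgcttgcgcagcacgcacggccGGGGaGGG
SIRT1: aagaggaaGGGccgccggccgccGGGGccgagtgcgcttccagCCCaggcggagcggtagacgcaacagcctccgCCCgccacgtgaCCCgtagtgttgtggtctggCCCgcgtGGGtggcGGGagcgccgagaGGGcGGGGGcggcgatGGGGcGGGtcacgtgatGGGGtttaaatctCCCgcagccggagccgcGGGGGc
SIRT3: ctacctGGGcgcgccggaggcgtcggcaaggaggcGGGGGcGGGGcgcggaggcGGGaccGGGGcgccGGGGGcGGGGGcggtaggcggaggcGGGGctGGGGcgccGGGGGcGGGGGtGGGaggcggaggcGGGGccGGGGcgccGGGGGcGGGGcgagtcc
BRD2: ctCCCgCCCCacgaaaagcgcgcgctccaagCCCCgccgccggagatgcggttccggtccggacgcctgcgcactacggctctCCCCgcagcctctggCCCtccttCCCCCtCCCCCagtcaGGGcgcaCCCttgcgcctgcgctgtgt

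The SIRT3 stretch of 163 bases had 16 G runs and 0 C runs on the coding strand and a GC content of 88.3%. The BRD2 stretch of 149 bases had 1 G run and 8 C runs, so nearly all of its G runs lay on the template strand, and it held no G4 motif by the rule used. HDAC1 had 10 G runs and 12 C runs over 245 bases, SIRT1 had 10 and 5 over 203 bases, and HDAC3 had 5 and 2 over 100 bases. HDAC3 too held no motif with loops of up to 7 bases, although its region was in all 5 libraries.

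Most of the histone acetylation genes carried BG4 signal at a promoter. A high-confidence region lay within 1 kb of a start site of 27 of the 33 genes (81.8%), against 34.8% of all protein-coding genes. A peak was called there in all 5 libraries for 21 of the 33 (63.6%), against 23.1% of all genes, and in no library for 3 of the 33 (9.09%), against 52.3%. Where peaks needed a −log10 p of at least 10, these counts were 10 genes (12.8% of all genes) and 5 genes (61.0%). Of the other 9 genes, 3 had a peak in 4 libraries (HDAC10, KAT5 and KAT6A), 3 in 3 libraries (HDAC2, KAT2B and NCOA2) and 3 in 1 library (KAT2A, SIRT6 and SIRT7). The genes were listed with earlier results of these data known, so these counts stand beside the background as a description and no test was made.

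Each library gave the same picture. A promoter peak was called in 26 of the 33 genes in library 1a (78.8%, against 38.5% of all genes) and in 25 in library 1c (75.8%, against 32.6%). In replicate 2 the count was 25 in 2a (75.8%, against 31.9%), 25 in 2b (75.8%, against 35.5%) and 28 in 2c (84.8%, against 39.0%). The mean was 25.5 genes in replicate 1 and 26 in replicate 2, or 25.8 ± 0.354 (SD, n = 2). Read numbers are unknown, and the lists on chromosomes 1 to 22, X and Y ran from 8044 peaks in 2a to 12484 in 1a.

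**Figure D1:**
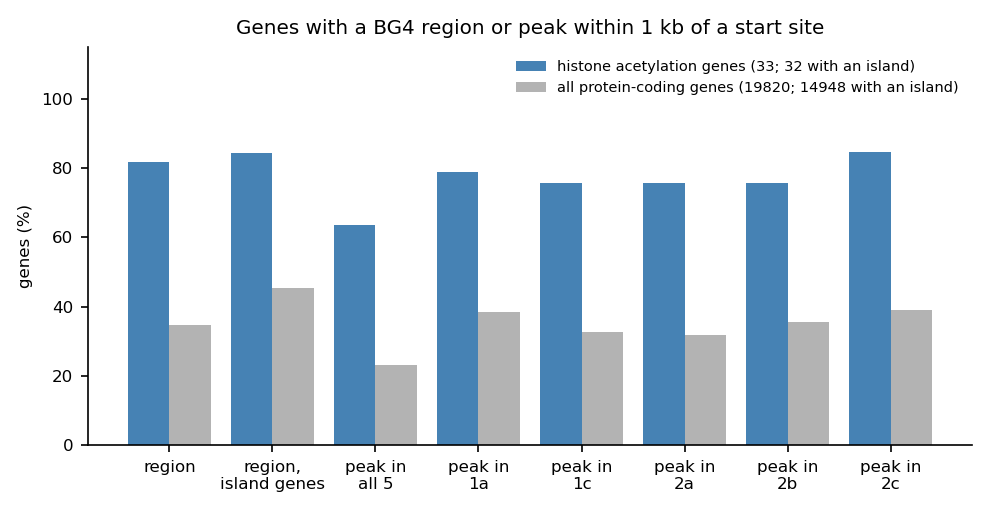
Share of genes (%) with a high-confidence BG4 region, or a BG4 peak in the named libraries, within 1 kb of a start site, for the histone acetylation genes (blue) and all protein-coding genes (grey); bars are shares of genes in 1 list or library and carry no error. The blue bar is taller in each pair, from 63.6% against 23.1% for a peak in all 5 libraries to 84.8% against 39.0% in library 2c.

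Features that go with BG4 signal were also more common in these genes. A strict CpG island (at least 500 bp, GC share of at least 0.55, observed over expected CpG of at least 0.65) lay at a promoter of 32 of the 33 genes (97.0%), against 75.4% of all genes. Among genes with such an island, 27 of 32 had a region (84.4%), against 45.4% of all. The 33 genes also had a median of 6 annotated start sites (range 1 to 25), against 3 for all genes, and each start site adds sequence in which a region can count. Island genes were grouped by start sites (1, 2 to 3, 4 to 7, and 8 or more), and each of the 33 genes was given the share of its group. These shares averaged 49.0%. The groups are coarse: 12 of the 33 genes fell in the group of 8 or more, where 54.6% of island genes had a region. SIRT4, which has no island, was included. The part of these features in the difference was not tested beyond these shares.

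Fold enrichment, the caller's ratio of signal to local background at a summit, was compared only within a library, as the percentile of the strongest promoter peak of a gene among all peaks of that list. The median percentile of the genes with a peak was 75.0 in replicate 1 and 70.0 in replicate 2, or 72.5 ± 3.53 (SD, n = 2), against 61.8 ± 4.11 for all genes with a promoter peak. It was higher than that of all genes in each of the 5 libraries: 75.3 against 65.6 in 1a, 74.7 against 63.9 in 1c, 72.5 against 57.8 in 2a, 68.3 against 58.1 in 2b and 69.1 against 60.8 in 2c. Over the genes with a peak in all 5 libraries the gap was narrower, a median of 71.9 (range 37.0 to 92.2) for the 21 against 68.2 for all 4569. The strongest peak was taken over all start sites of a gene, and the 33 genes had more of them (median 6 against 3). The part of that in the gap was not tested.

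**Figure D2:**
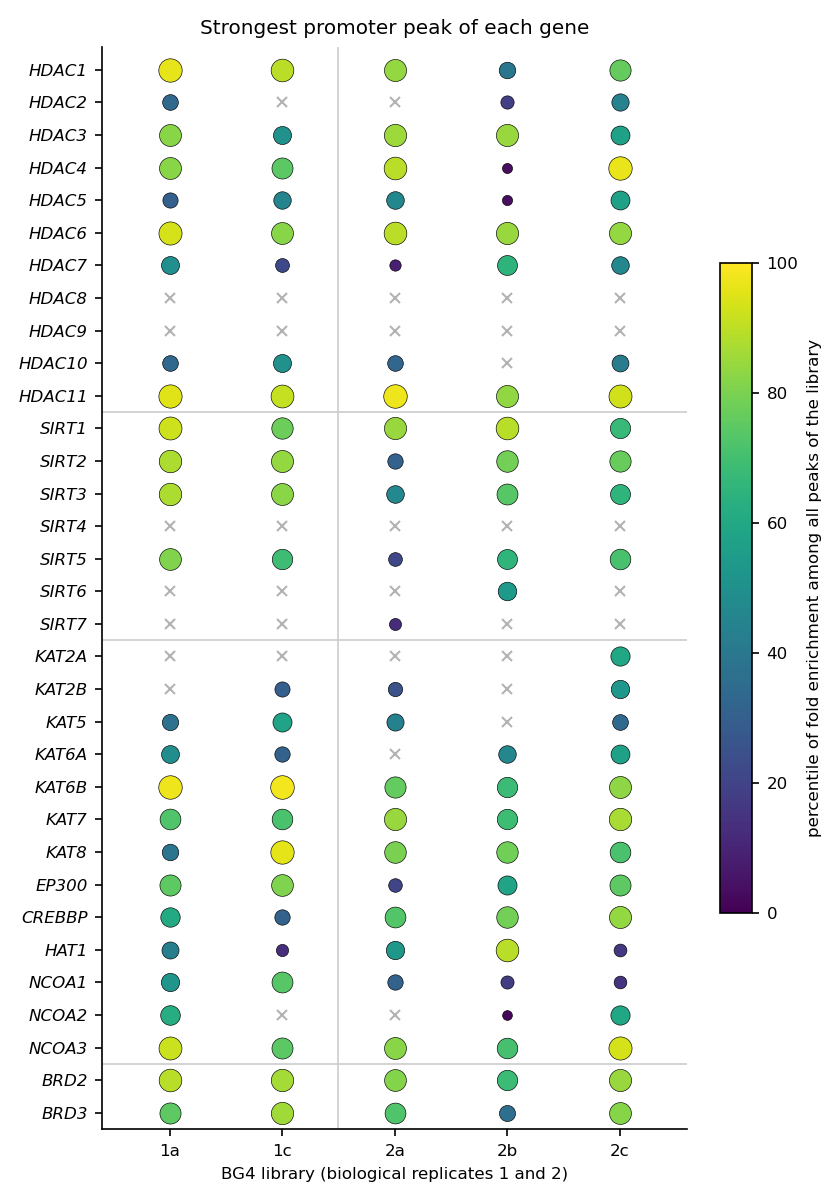
Percentile of the strongest promoter peak of each of the 33 genes (rows, grouped from top to bottom as deacetylases, sirtuins, acetyltransferases and readers) among all peaks of each of the 5 libraries (columns); larger and yellower circles are higher percentiles, and a grey cross means no peak within 1 kb of a start site. HDAC6 lies at 82.2 or above and HDAC11 at 83.5 or above in every library, and HDAC8, HDAC9 and SIRT4 have crosses throughout.

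Among the zinc-dependent deacetylases, 9 of 11 had a high-confidence region and 7 had a peak in all 5 libraries. Of class I, the mainly nuclear enzymes, 3 of 4 had a region: the entinostat targets HDAC1, HDAC2 and HDAC3. HDAC8 had no promoter peak in any library, although it had 20 start sites and a strict CpG island. HDAC1 and HDAC3 had a peak in all 5 libraries, whereas HDAC2 had one in 3.

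HDAC1, a catalytic subunit of the SIN3, NuRD and CoREST complexes, had a region of 373 bp at chr1:32757439-32757811, from -245 to 127 bp around its start site, over UTR, coding sequence and upstream DNA. Its fold enrichment was 13.7 (1a) and 10.1 (1c) in replicate 1, and 9.17 (2a), 5.82 (2b) and 7.63 (2c) in replicate 2. Within the lists these were the 96.3, 89.5, 83.6, 39.3 and 76.3 percentiles. Both libraries of replicate 1 ranked above all 3 of replicate 2, with 2b the lowest, and the mean percentile was 79.6 ± 18.7 (SD, n = 2). The 5 summits lay within 44 bp of each other, the tightest of the 21 regions found in all 5 libraries, from -130 to -86 bp. The G4 motif of the region, from -30 to -13 bp, lay outside that span.

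HDAC2, the close paralogue of HDAC1 in the same complexes, had a region of 56 bp at chr6:114292553-114292608, wholly intronic and upstream of an internal start site. Its peak had a fold of 5.94 in 1a, 4.87 in 2b and 5.77 in 2c, and no peak was called in 1c or 2a. All 3 peaks ranked in the lower part of their lists, at the 33.4, 18.7 and 44.4 percentiles. The middle of the region lay at -260 bp from that start, beside the start of the lncRNA HDAC2-AS2 on the opposite strand. It was no longer counted when each gene was given 1 start site.

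HDAC3, the catalytic subunit of the NCOR and SMRT complexes, had a region of 178 bp at chr5:141016394-141016571, from -155 to 22 bp around its start. The fold was 9.73 (1a) and 6.50 (1c) in replicate 1, and 9.39 (2a), 8.52 (2b) and 6.37 (2c) in replicate 2. The percentiles were 82.4, 50.2, 85.5, 84.4 and 57.1, so 1c and 2c ranked lowest and the replicates overlapped, with a mean of 71.0 ± 6.62 (SD, n = 2). The promoter is shared with RELL2, which starts on the opposite strand within 1 kb, and the signal cannot be told apart between the pair.

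The class IIa enzymes HDAC4, HDAC5, HDAC7 and HDAC9, which move between nucleus and cytoplasm, were split. HDAC4, HDAC5 and HDAC7 each had a peak in all 5 libraries, and HDAC9, also with 20 start sites and an island, had none. For HDAC5 this joins 2 regions at different start sites, and neither was in all 5 libraries. The region at chr17:42188614-42188739 had no peak in 2a, and that at chr17:42201121-42201138 (18 bp) had none in 1a or 2b. The strongest HDAC5 peaks in 2a and 2c belong to the 18 bp region, and those in the other libraries to the first. HDAC5 and HDAC7 ranked lowest of the 21 genes with a peak in all libraries, at mean percentiles of 37.0 ± 1.48 and 37.9 ± 2.94 (SD, n = 2). HDAC4 had 3 G4 motifs in 1 intronic region of 409 bp, and its percentile ran from 3.16 in 2b to 96.7 in 2c.

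Of class IIb, HDAC6, the cytoplasmic tubulin deacetylase, had 2 regions that lay almost wholly over annotated UTR, at chrX:48660040-48660534 (495 bp, the widest of the 37) and chrX:48660814-48660958. The fold of its strongest peak was 12.4 (1a) and 8.91 (1c) in replicate 1, and 10.1 (2a), 8.57 (2b) and 8.41 (2c) in replicate 2. All 5 percentiles lay between 82.2 and 93.7, with a mean of 87.0 ± 1.42 (SD, n = 2). The G4 motif printed for HDAC6 lay in the weaker region, which was in 4 libraries at folds of 5.33 to 6.03. The stronger region held no motif. HDAC10, a polyamine deacetylase, had a peak in 4 libraries at folds of 5.67 to 6.50 and none in 2b.

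HDAC11, the single class IV enzyme and a fatty-acid deacylase, had the highest mean percentile of the 21 genes with a peak in all 5 libraries, 92.2 ± 1.34 (SD, n = 2). Its region of 300 bp at chr3:13521534-13521833 covered a start site, over UTR and intron. The summits ran from -55 to 13 bp. The upstream motif, from -80 to -52 bp, met the edge of that span, and the downstream motif, from 62 to 81 bp, lay outside it. The fold was 13.1 (1a) and 10.5 (1c) in replicate 1, and 12.6 (2a), 8.38 (2b) and 9.87 (2c) in replicate 2, at percentiles from 83.5 in 2b to 97.6 in 2a. On this mean HDAC11 lay above HDAC6 by more than the SD of either gene, but in 2b HDAC6 ranked higher (84.6 against 83.5). KAT6B, next at 86.8 ± 15.5, did not differ from either beyond its own spread.

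Of the 7 sirtuins, 4 had a high-confidence region, and the same 4 (SIRT1, SIRT2, SIRT3 and SIRT5) had a peak in all 5 libraries. SIRT4 had none, and SIRT6 and SIRT7 had a peak in 1 library each. The 4 with signal include a nuclear enzyme (SIRT1), a mainly cytoplasmic one (SIRT2) and a pair of mitochondrial ones (SIRT3 and SIRT5), while SIRT4 is mitochondrial, SIRT6 nuclear and SIRT7 nucleolar.

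SIRT1, which deacetylates p53 as well as histones, had a region of 288 bp at chr10:69644211-69644498, from -203 to 84 bp around its start. The fold was 12 (1a) and 8.40 (1c) in replicate 1, and 9.30 (2a), 9.13 (2b) and 6.98 (2c) in replicate 2. The percentiles ran from 67.3 in 2c to 92.3 in 1a, and the replicate means of 84.9 and 80.4 gave 82.7 ± 3.23 (SD, n = 2). The single motif, from -69 to -46 bp, lay among the 5 summits, which ran from -105 to -28 bp.

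SIRT3, the main mitochondrial deacetylase, had its stronger region at chr11:236305-236517, with 3 motifs, all on the coding strand. The fold was 10.7 (1a) and 8.97 (1c) in replicate 1, and 6.63 (2a), 7.55 (2b) and 6.81 (2c) in replicate 2. Both libraries of replicate 1 (87.5 and 82.7 percentile) ranked above the 3 of replicate 2 (46.9, 73.8 and 65.0), with a mean of 73.5 ± 16.4 (SD, n = 2). A second region at chr11:236900-237017 was in 4 libraries. Both lie within 1 kb of a start site of PSMD13, a proteasome subunit gene on the opposite strand.

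SIRT2, a tubulin deacetylase, had 2 regions at chr19:39390171-39390357 and chr19:39390455-39390560, both covering a start site and both within 1 kb of a start of NFKBIB on the other strand. The fold of its strongest peak was 10.7 (1a) and 9.15 (1c) in replicate 1, and 5.91 (2a), 7.94 (2b) and 7.67 (2c) in replicate 2. The percentile was 31.3 in 2a and 76.6 to 87.5 in the other 4 libraries, with a mean of 73.9 ± 16.5 (SD, n = 2). The value in 2a belongs to the second region, since the first had no peak in 2a. The second region was at the 0.671 percentile in 2c. In 1a, 1 wide peak spanned both regions. Neither held a G4 motif, and the second had the lowest GC content of the 37 regions, 50.9%.

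SIRT5, a desuccinylase and demalonylase, had 2 regions. Its strongest peak lay at percentiles from 21.4 in 2a to 81.1 in 1a, and the second region, in 3 libraries, was as low as 2.14 in 2c. The single SIRT6 peak, in 2b, had a fold of 6.39 with its summit at -16 bp. The single SIRT7 peak, in 2a, had a fold of 4.94 with its summit at -744 bp. A high-confidence region lay 2121 bp from a SIRT7 start, outside the window, at chr17:79881320-79881563, where MAFG starts.

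Of the 13 acetyltransferases and coactivators, 12 had a high-confidence region and 8 had a peak in all 5 libraries. All 5 MYST enzymes had a region (KAT5, KAT6A, KAT6B, KAT7 and KAT8), as did EP300 and CREBBP, HAT1 and the 3 NCOA coactivators. Of the GCN5 family, the catalytic subunits of SAGA and ATAC, only KAT2B did, with folds in the region of 5.54 in 1c, 5.59 in 2a and 5.31 in 2c. In 2c a stronger promoter peak, with a fold of 6.19, lay outside the region. KAT2A, the GCN5 gene itself, had a peak in 2c alone, with a fold of 6.53.

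KAT6B, the catalytic subunit of a MYST complex with BRPF scaffolds, had 25 annotated start sites, the most of the 33 genes, and 2 regions in all 5 libraries, at chr10:76585905-76586351 and chr10:76586550-76586765. The fold of its strongest peak was 14.5 (1a) and 13.6 (1c) in replicate 1, and 8.40 (2a), 7.22 (2b) and 8.30 (2c) in replicate 2. At the 97.3 and 98.2 percentiles, replicate 1 ranked above replicate 2 (76.1, 68.3 and 82.9), with a mean of 86.8 ± 15.5 (SD, n = 2). In 1a, 1 wide peak covered both regions, with its summit in the second, at 48 bp from the start site there. In 2a, 2b and 2c the second region had the higher fold.

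KAT7, the HBO1 enzyme that acetylates histones at replication origins, had a region of 280 bp at chr17:47866381-47866660, from -293 to -14 bp. The fold was 8.59 (1a) and 7.78 (1c) in replicate 1, and 9.30 (2a), 7.25 (2b) and 8.84 (2c) in replicate 2. The percentiles overlapped between replicates (72.3 and 71.1 against 84.5, 68.6 and 87.1), with a mean of 75.9 ± 5.91 (SD, n = 2). The region held no G4 motif and lay within 1 kb of a start of FAM117A on the opposite strand.

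NCOA3, a nuclear receptor coactivator, had a region of 254 bp at chr20:46130462-46130715, with folds of 11.9 (1a) and 8.13 (1c) in replicate 1, and 9.05 (2a), 7.32 (2b) and 10.1 (2c) in replicate 2. Its mean percentile of 82.7 ± 0.859 (SD, n = 2) had the smallest SD of the 10 genes given in full, although its libraries ran from 70.4 to 93.7. The related NCOA1 had replicate means of 62.9 and 21.6, or 42.3 ± 29.2. NCOA2 had a peak in 3 libraries, at percentiles of 1.83 to 62.3.

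EP300 and CREBBP, the paralogous transcriptional coactivators, both had a peak in all 5 libraries at similar mean percentiles, 64.6 ± 18.9 and 62.2 ± 22.9 (SD, n = 2), and did not differ beyond their spread. The replicates went in opposite directions: EP300 had 78.0 in replicate 1 and 51.2 in replicate 2, and CREBBP had 46.0 and 78.4. The EP300 region, chr22:41487527-41487782, lay far from its start, from -1069 to -814 bp, and was not counted with a window of 500 bp. HAT1, which acetylates newly made histones in the cytoplasm, ran from the 13.1 percentile in 1c to 89.2 in 2b, with a mean of 40.3 ± 17.6 (SD, n = 2).

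Of the remaining MYST enzymes, KAT8 had a mean percentile of 71.9 ± 6.42 (SD, n = 2), which did not differ from that of KAT6B beyond the spread, and it ranked above KAT6B in 2a and 2b. KAT8, the MOF enzyme that acetylates histone H4, had 2 regions, and its strongest peak had folds of 6.20 to 11.9 over the 5 libraries. The lowest, 6.20 in 1a, is from 1 wide peak that met both regions, with its summit at 241 bp, in the second. The second region had no peak in 1c and a fold of 4.61 in 2b. KAT5, the TIP60 enzyme, had 2 regions, and its strongest peak had folds of 5.33 to 6.98 in 4 libraries. The second region went down to a fold of 3.69 in 2c. KAT6A, the paralogue of KAT6B, had folds of 5.66 to 6.69 in 4 libraries and no peak in 2a.

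Both BET readers, BRD2 and BRD3, had 2 regions each and a peak in all 5 libraries. BRD2, which binds acetylated histones through its paired bromodomains, had regions at chr6:32936176-32936461 and chr6:32939610-32939991, both in all 5 libraries. Its strongest peak had folds of 11.1 (1a) and 9.61 (1c) in replicate 1, and 8.96 (2a), 7.22 (2b) and 8.49 (2c) in replicate 2. The percentiles ran from 68.3 in 2b to 89.3 in 1a, with a mean of 83.0 ± 7.06 (SD, n = 2). The first region is shared with HLA-DMA, which starts on the opposite strand within 1 kb, and the second lay in BRD2 exons, over 241 bp of UTR and 141 bp of coding sequence. BRD3 had a mean percentile of 71.9 ± 12.1, with 2b lowest at 35.9 and the other libraries from 72.5 to 85.8.

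**Figure D3:**
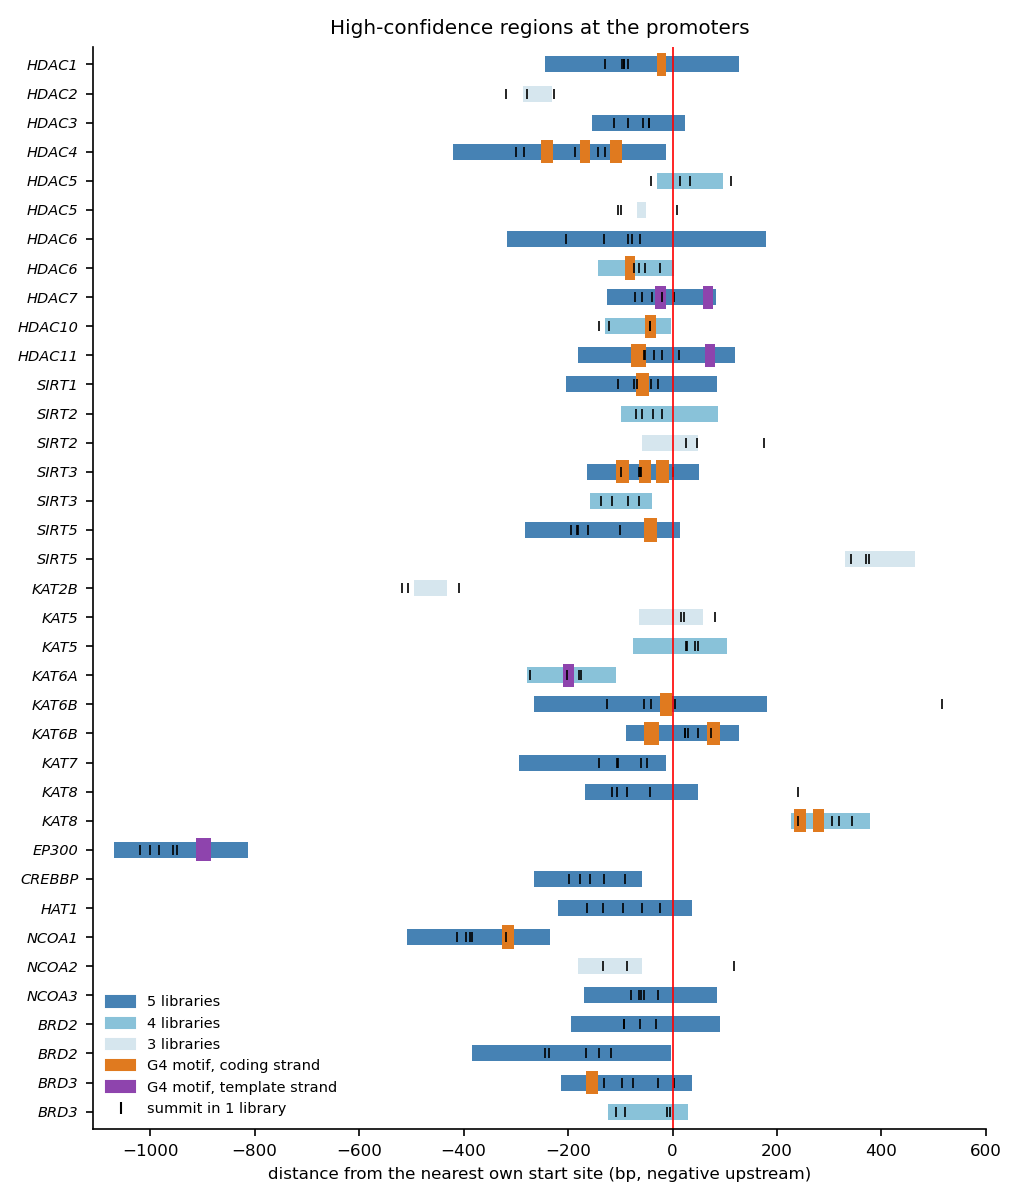
Map of the 37 high-confidence promoter regions (bars, 1 per row), by distance in bp from the nearest start site of the gene (red line; negative is upstream), coloured by the number of libraries with a peak there; ticks are the summits in single libraries, orange blocks G4 motifs on the coding strand and purple blocks motifs on the template strand. Most regions lie across or just upstream of the start, the EP300 region is the farthest at -1069 to -814 bp, and motifs on the coding strand (19) outnumber those on the template strand (5).

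The 37 regions resembled promoter regions in general in place and composition. Their median width was 209 bp, against 215 bp for all 6848 promoter regions, and their middle lay a median of -60.0 bp from the nearest start of the gene. The middle was upstream of the nearest protein-coding start in 32 of 37 (86.5%, against 82.1%), and 23 covered such a start (62.2%, against 70.1%). Of the 37, 24 touched an annotated UTR of their own gene, 7 its coding sequence and 6 an intron without any of its exons. Another 6 lay wholly outside their own gene, and features of other genes were not counted. The median GC content was 73.2% against 71.1%, and the observed over expected CpG ratio 0.826 against 0.878.

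Motif content was close to the background under 1 count and above it under another. A G4 motif lay wholly inside 16 of the 37 regions (43.2%), against 37.3% of all promoter regions. In a fixed window of 200 bp around the middle it was 19 of 37 (51.4%), against 35.8%. Of the 24 motifs, 19 were on the coding strand (79.2%), against 54.3% of the 3973 motifs in all promoter regions. Motifs within a gene are not independent, and HDAC4, SIRT3 and KAT6B held 9 of the 24. The GC box GGGCGG, the core of the site that SP1 family factors bind, was searched on both strands and was in 28 of 37 regions (75.7%), against 78.8%. GGGCGG can overlap a G4 motif.

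The genes with a region often had more than 1. Of the 27, 10 had 2 regions (37.0%), against 14.0% of all 6904 genes with a region, and the 10 were HDAC5, HDAC6, SIRT2, SIRT3, SIRT5, KAT5, KAT6B, KAT8, BRD2 and BRD3. The 33 genes had more annotated start sites than all genes (median 6 against 3), and the part of that in this count was not tested. A protein-coding gene on the opposite strand started within 1 kb of 7 of the 37 regions (18.9%, against 14.6%), at HDAC3, SIRT2, SIRT3, KAT7 and BRD2. Over the 21 regions in all 5 libraries the summits spanned a median of 94.0 bp (range 44 to 642), and the widest span was at KAT6B, where the single wide peak in 1a had its summit in the other region.

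The 6 genes without a region differed in composition from the 27 with one. In 1001 bp centred on the start site shared by most transcripts, the median GC content was 50.9% in the 6 (range 44.3 to 65.0) and 68.3% in the 27 (range 46.2 to 78.5). Over all genes it was 56.8% without and 63.8% with a region. A G4 motif lay in that window in 2 of the 6 (33.3%, KAT2A with 6 motifs and HDAC8 with 1) and 21 of the 27 (77.8%). The share over all genes was 50.1% without a region and 69.1% with one. The ranges of GC content overlapped: KAT7, at 54.1%, had a region, and KAT2A, at 65.0%, had none. The lowest value of the 27, for HDAC2, is from a window at another start site than its region, which itself had a GC content of 73.2%. The nearest high-confidence region was 445991 bp from a start of HDAC8, 1333160 bp from HDAC9, 57985 bp from SIRT6, 15206 bp from SIRT4 and 13360 bp from KAT2A.

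**Figure D4:**
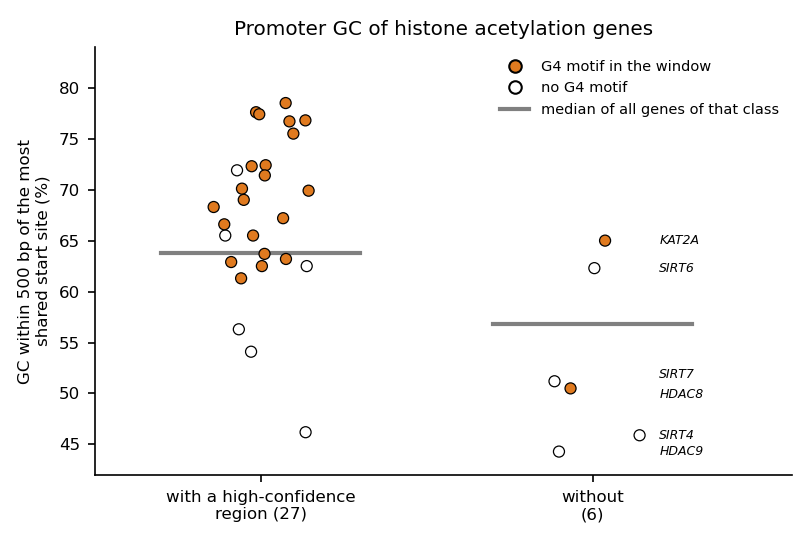
GC content (%) of the 1001 bp around the most shared start site, 1 point per gene, for the 27 histone acetylation genes with a high-confidence region and the 6 without; filled points hold a G4 motif in that window, and grey lines are the medians of all protein-coding genes of each class (63.8% and 56.8%). Of the 6 genes without a region, 4 lie below the lower grey line, and KAT2A and SIRT6 lie above it.

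Genes that work with these enzymes were described from 4 lists of textbook membership, 100 genes in all, of which 63 (63.0%) had a region, against 34.8% of all genes. Of the 100 genes, 98 had a strict CpG island, and 45.4% of all genes with such an island had a region. A peak in all 5 libraries was found in 51 of the 100 (23.1% of all genes) and in no library in 17 (52.3% of all genes). Subunits of acetyltransferase complexes had a region in 31 of 42 genes (73.8%), enzymes that supply acetyl-CoA in 6 of 8 (75.0%), corepressor subunits in 17 of 28 (60.7%) and other readers in 9 of 22 (40.9%). Over those in all 5 libraries, the median of the mean percentiles was 68.2 for all genes. Readers (64.9) and acetyltransferase subunits (65.4) lay below that, and corepressor subunits (72.3) and acetyl-CoA supply (77.4) above it.

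Of the corepressor subunits, GATAD2A of NuRD (mean percentile 98.2), the scaffold SIN3A (95.3) and MTA2 of NuRD (88.0) ranked highest, while the MTA2 paralogues MTA1 and MTA3 had no peak in any library. Of the acetyltransferase subunits, BRPF1, a scaffold of the MYST enzymes, had 92.0, EP400, the ATPase of the TIP60 complex, had 90.7, and ING2, a reader of methylated histone H3 that also joins SIN3 complexes, had 87.6. ATXN7 and DMAP1 had no peak. Among the readers, ATAD2 had 97.8 with folds of 9.22 to 20.3, BAZ1B had 82.6 and MLLT1 had 78.8, and BAZ1A and BRD1 had no peak. Of the acetyl-CoA genes, ATP citrate lyase ACLY had 92.7, the citrate carrier SLC25A1 had 77.8 and citrate synthase CS had 77.4, and ACSS1 had no peak.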

How the data were processed

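BG4 peak lists of 5 K562 libraries and 1 high-confidence list were used. Peaks were called with MACS2 on hg19, per the submitters' processing notes. The aligner, control and settings are not given in the sources used here. In the deposited lists the score equalled 10 times the −log10 p with its decimals dropped, within rounding. Fold enrichment, as deposited, was a ratio to the local background at the summit. The deposited −log10 p and −log10 q were the caller's values per peak. All are the authors' values and were compared within 1 list alone. The authors' high-confidence regions were identical to the bases covered by at least 3 of the 5 lists. Depth is unknown.

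Start sites came from protein-coding transcripts of GENCODE release 44 on GRCh37. A region or peak counted when it overlapped by 1 base the 1 kb on either side of one. Chromosomes 1 to 22, X and Y were used. Percentiles were averaged over technical libraries first. Python 3.11.15, numpy 2.4.6, pandas 2.3.3 and pysam 0.24.0 were used, and the counting was tested on simulated data. Values in every library are given for HDAC1, HDAC2, HDAC3 and the 10 genes with the highest mean percentile among those in all 5 libraries. Of each partner list the text names up to 3 genes with the highest mean percentile and the first 2 in alphabetical order with no peak. The members and lists were chosen with earlier results of these data known. Start-site counts, promoter composition, motif strand and regions per gene were added after the files were seen. Some sequence is not reported here. No test was made.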

Additional observations from a re-analysis of the deposited data

Results flagged for a closer look

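Over 23 sets of 5 libraries, the 21 genes with a peak in all 5 and 2 summaries over the genes, 1 library lay far from the other 4 in 4 sets. Chance gives such a gap in about 1 in 20 sets, and technical libraries of 1 replicate are not independent. HDAC4 was at the 3.16 percentile in 2b (fold 3.87), with the other libraries from 74.7 to 96.7. BRD3 was at 35.9 in 2b (fold 5.65), with the others from 72.5 to 85.8. SIRT2 was at 31.3 in 2a (fold 5.91), with the others from 76.6 to 87.5. SIRT5 was at 21.4 in 2a (fold 5.44), with the others from 64.9 to 81.1. All 4 were low values in a library of replicate 2. For SIRT2 the value in 2a is from its second region, and the region with the other 4 values had no peak in 2a. For SIRT5 the value in 1c (69.1) is from its second region, and the first region was at 41.8 there.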

How the results depend on the processing

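The count of 27 genes with a region was 26 with a window of 500 bp (without EP300) and 27 with 2 kb. It was 26 with basic transcripts (without NCOA2) and 25 with 1 start site per gene (without HDAC2 and NCOA2). The shares of all genes were 34.0%, 35.6%, 34.3% and 31.3%, in that order. The count was 19 where peaks needed a −log10 p of at least 10 (24.9% of all genes) and 19 where regions had to be in all 5 libraries (22.2%). Leaving out 1 library gave 24 to 26 genes, losing HDAC2, KAT2B or NCOA2, against 30.2% to 32.6% of all genes. With the −log10 p of at least 10, genes with a peak in all 5 libraries fell from 21 to 10 (12.8% of all genes), and those with a peak in none went from 3 to 5 (61.0%). The latter count was also 5 with the 500 bp window (53.6% of all genes), and 3 to 4 without 1 library (52.9% to 54.6%). With G runs of 2 or more, 32 of the 37 regions held a motif, against 16, and so did 93.8% of all promoter regions, so that count tells little apart. The median percentile stayed between 69.7 and 72.9, against 60.1 to 62.2 for all genes with a promoter peak. Partner genes with a region numbered 49 to 64, against 24.9% to 35.6% of all genes. No paired analysis was possible because there was 1 condition and no test. Depth is unknown, so a missing peak does not show that the structure is absent.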

Other observations

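Inside the 33 genes but away from their own start sites, 3 high-confidence regions were found, and none held a G4 motif. HDAC11 had one in all 5 libraries at chr3:13526619-13526936, wholly intronic, 4032 bp from its nearest start site, with no annotated start within 1 kb. SIRT7, which had no high-confidence promoter region, had an intronic one of 3 libraries at chr17:79870726-79870799. The third, chr6:13615369-13615627, touched the 3′ end of SIRT5 and lay within 1 kb of a start site of NOL7, in all 5 libraries.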
